A study of Mus musculus with 18 samples.

Results

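Of the 104737 regions that H3K9ac peaks cover in embryonic mouse cortex, 8253 (7.88%) were narrow, lay at a gene end and held a peak in every library. H3K9ac is histone H3 acetylated at lysine 9. A region joins all peaks of the 8 H3K9ac libraries that overlap by at least 1 bp. It was taken when it was narrower than 2000 bp, held a peak in all 8 libraries and touched the 1 kb on either side of either end of a RefSeq protein-coding gene (mm10). These regions made up 66.6% of the 12400 regions with a peak in all 8 libraries. They were chosen by width, position and presence of a peak, so their peak values are given below as a description, with no test.

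The tissue was whole cortex at E15.5, an embryonic day of active neurogenesis, taken as bulk tissue from BAF155 conditional knockout mice that had been treated with Vehicle or with TSA (trichostatin A, an inhibitor of histone deacetylases). H3K9ac was profiled in 4 Vehicle and 4 TSA samples and RNA in another 4 and 4. Both groups carry the knockout, so every comparison is of TSA with Vehicle within it. The Cre driver, the dose and the length of treatment were not stated. The labels do not say that replicates came from different animals, and p-values then cover only the spread between samples, which may be technical. BAF155, a structural subunit of SWI/SNF-type (BAF) remodellers of nucleosomes, is encoded by Smarcc1, which has a region of this set at its own start. In CPM, read counts scaled to a common library total, its RNA was 130, 148, 141 and 124 in Vehicle 1 to 4 and 133, 132, 118 and 144 in TSA 1 to 4. Which exons are deleted was not stated.

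H3K9ac is laid down by histone acetyltransferases of the GCN5/PCAF family and removed by histone deacetylases. It marks nucleosomes beside the starts of transcribed genes, and the start itself is often bare of nucleosomes. Most mammalian housekeeping genes start in CpG islands, stretches rich in the dinucleotide CG that most of the genome has lost.

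The DNA just before the start of 10 genes is printed first, because it shows the make-up that most of these starts share and the motifs counted below. Each line is RefSeq sequence (GRCm38.p6, the assembly of mm10), 5′ to 3′ on the gene's strand. It ends at the base before the start and holds 150 bases, or the whole stretch between both starts where another gene starts closer on the opposite strand. Capitals mark those of the 8 motifs searched, on both strands, that occur here: the CCAAT box (CCAAT), the GC box (GGGCGG) bound by SP1-type factors, the ETS motif (CCGGAAG), the NRF1 motif and an E-box (CAGCTG). The first 5 belong to genes whose RNA fell in TSA.
Rpl34, chr3:130730399-130730548, minus strand: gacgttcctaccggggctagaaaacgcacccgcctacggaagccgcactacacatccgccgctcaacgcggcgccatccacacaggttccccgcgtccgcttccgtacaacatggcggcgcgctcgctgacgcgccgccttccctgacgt
Ndufv2, chr17:66101560-66101709, minus strand: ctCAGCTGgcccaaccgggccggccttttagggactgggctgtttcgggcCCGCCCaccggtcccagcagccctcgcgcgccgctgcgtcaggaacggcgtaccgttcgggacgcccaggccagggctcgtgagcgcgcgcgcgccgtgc
Psma2, chr13:14613092-14613241, plus strand: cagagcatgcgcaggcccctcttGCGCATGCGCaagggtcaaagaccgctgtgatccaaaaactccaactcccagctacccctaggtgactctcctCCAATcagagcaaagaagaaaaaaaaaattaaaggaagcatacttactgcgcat
Prim1, chr10:128015065-128015214, plus strand: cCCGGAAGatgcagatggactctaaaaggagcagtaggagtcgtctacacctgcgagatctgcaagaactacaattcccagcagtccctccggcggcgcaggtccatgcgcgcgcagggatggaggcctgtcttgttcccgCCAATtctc
Wls, chr3:159839500-159839649, plus strand: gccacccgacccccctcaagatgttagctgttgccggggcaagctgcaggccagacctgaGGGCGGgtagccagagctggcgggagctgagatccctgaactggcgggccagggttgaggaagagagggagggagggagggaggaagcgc

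The next 3 precede genes whose RNA rose in TSA, and each carries a GC box, as do Ndufv2 and Wls above.
Sorl1, chr9:42124298-42124447, minus strand: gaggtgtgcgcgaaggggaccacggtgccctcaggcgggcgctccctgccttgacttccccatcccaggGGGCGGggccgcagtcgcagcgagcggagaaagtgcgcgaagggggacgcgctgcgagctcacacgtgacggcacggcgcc
Arid1a, chr4:133756770-133756919, minus strand: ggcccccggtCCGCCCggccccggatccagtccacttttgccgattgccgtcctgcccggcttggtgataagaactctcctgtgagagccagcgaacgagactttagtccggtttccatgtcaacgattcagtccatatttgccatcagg
Tle4, chr19:14598184-14598333, minus strand: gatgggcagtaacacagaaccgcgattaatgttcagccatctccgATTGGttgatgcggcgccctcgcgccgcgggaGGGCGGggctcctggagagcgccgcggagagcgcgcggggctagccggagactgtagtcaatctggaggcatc

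The last 2 are the whole stretch between a pair of genes that leave in opposite directions, shown because a single narrow region lies within 1 kb of both starts.
Mrpl50 and Zfp189, chr4:49521084-49521175, minus strand: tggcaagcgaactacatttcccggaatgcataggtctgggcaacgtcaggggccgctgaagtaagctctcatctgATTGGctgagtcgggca
Hdlbp and Septin2, chr1:93478918-93478980, minus strand: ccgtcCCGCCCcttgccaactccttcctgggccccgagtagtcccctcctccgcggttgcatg

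The regions had a median width of 1039 bp, with quartiles at 789 and 1378 bp and a range of 240 to 1999 bp. Just inside the width limit lay the region of Mycbp2 (1997 bp), and just outside those of Zfand3 (2000 bp) and Tmed1 (2001 bp). Another 2205 narrow gene-end regions held a peak in 7 of the 8 libraries. Of these, 1446 lacked a peak only in Vehicle 4 and 510 only in TSA 3, against 47, 34 and 23 for Vehicle 1 to 3 and 54, 89 and 2 for TSA 1, 2 and 4. Without the Vehicle 4 library the same rule gave 9702 regions.

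Vehicle 4 stood apart among the H3K9ac libraries, with the most tags (24075842, against 11824246 to 19920755 in the others) and the fewest peaks (22668, against 32248 to 61217). The authors used a single input of 18937878 tags for every peak list. RNA libraries held 6733415 to 20400727 counts. The labelled tissue was checked by its marker genes: all 11 cortical markers had counts, with a summed level of 1983 to 2811 CPM in Vehicle and 3237 to 3845 CPM in TSA. Of these 11 genes 9 rose and 1 fell in TSA, where 15.4% of all tested genes rose and 17.6% fell. Ganglionic eminence markers summed to 798 to 928 CPM in Vehicle and 320 to 487 CPM in TSA, and all 6 of these genes fell. In each marker list that follows 0 genes rose and 1 or 2 fell. For 6 erythroid markers the sums were 151 to 336 and 115 to 136 CPM, for 7 meningeal and pericyte markers 146 to 197 and 93.7 to 128 CPM, for 6 endothelial markers 110 to 179 and 119 to 149 CPM, and for 6 microglial markers 31.4 to 44.3 and 26.9 to 38.2 CPM. None of the ganglionic eminence, microglial, erythroid or meningeal markers had a region of this set at its start. In the RNA libraries the share of mitochondrial reads was 1.60% to 3.36% in Vehicle, highest in Vehicle 1 and 4, and 1.48% to 1.71% in TSA. What part these differences play in the RNA results was not tested, and in bulk tissue fewer cells of a type cannot be told apart from less RNA per cell.

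Start sites dominated the set. Of the 8253 regions, 6033 (73.1%) lay at gene starts alone, 447 (5.42%) at a start and a 3′ end together, and 82 (0.994%) at 3′ ends alone. For 1413 regions (17.1%) the strand of the neighbouring gene is not in the promoter table used here, so the end could not be named. In all, 6390 genes had such a region at their start, of 17492 protein-coding genes with a known strand (36.5%). The X chromosome held 99 of the regions (1.20%), against 966 of 21900 protein-coding genes (4.41%).

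A start was usually covered by 1 region. Of the 6390 genes, 5133 had 1 narrow region within 1 kb of the start, 1225 had 2 and 32 had 3 or more. The start itself lay inside a region in 3725 of 6076 genes (61.3%) whose table start was within 1 kb. Among 1176 genes with 2 regions and such a start, 558 had one region on each side of it, parted by a median of 176 bp (quartiles 117 and 309 bp).

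In most genes counted here the strongest H3K9ac summit lay downstream of the listed start, not on it. The start was the promoter-table entry nearest the outermost end of the gene, so starts in use farther inside were not considered. Only summits within 1 kb of it were counted, in 4110 to 4169 of 4282 genes, depending on the library. Over genes whose region lies near a single start, the strongest summit was downstream of the start in 84.1%, 82.1%, 81.6% and 81.3% of genes in Vehicle 1 to 4 and in 82.0%, 81.1%, 80.7% and 83.0% in TSA 1 to 4. Its median distance was 263, 264, 266 and 284 bp into the gene in Vehicle and 280, 308, 305 and 249 bp in TSA, so the groups overlapped. Within 75 bp of the start lay 2.62% to 3.21% of strongest summits, while 42.6% to 53.9% lay 75 to 400 bp downstream and 9.81% to 12.3% the same distance upstream. All 8 libraries therefore showed a large peak after the start and a small one before it.

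**Figure D1:**
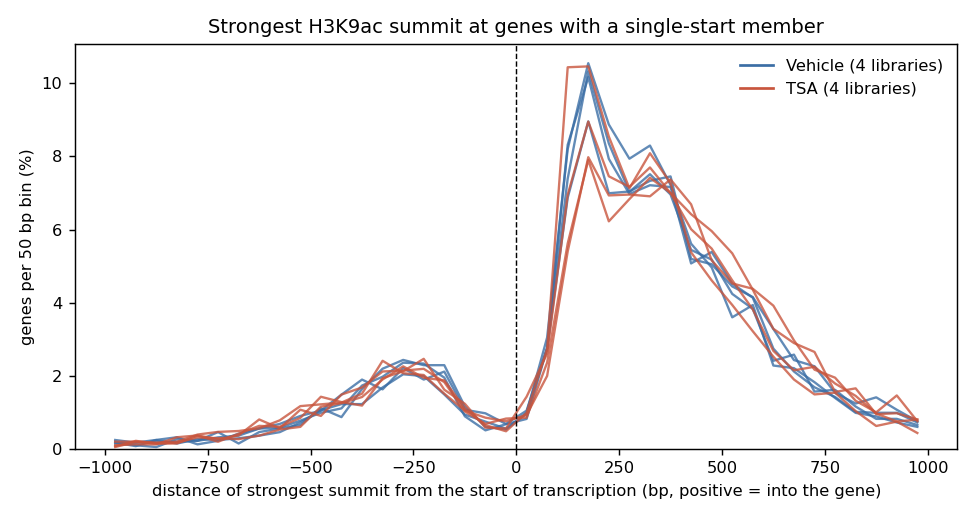
Share of genes (%, per 50 bp bin) by distance in bp of the strongest H3K9ac summit from the start of transcription, for genes whose narrow region lies within 1 kb of a single start; each line is 1 library. All 8 lines dip at the start, and 80.7% to 84.1% of the summits within 1 kb of it lie on the gene side.

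Where a region served a pair of genes leaving in opposite directions, the strongest summit fell on either side. Here 484 pairs were taken whose starts in the promoter table were apart. In these it lay in the gene on the plus strand in 44.6% to 46.9% of pairs in 7 libraries and more often in TSA 4. The gene on the minus strand held it in 46.9% to 51.2% of pairs, depending on the library. Only 2.69% to 4.96% of the pairs had it in between.

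Within each list the narrow gene-end regions stood high. The rule favours this, since it asks for a peak in every library, so their order against regions in fewer libraries is no test. Only the strongest peak of a region was ranked, among all single peaks of the list, and wider regions can hold more peaks to take it from. The median fold enrichment of a region's strongest peak, a ratio to the local background computed by the authors, was 8.81, 8.76, 9.65 and 5.92 in Vehicle 1 to 4 and 8.31, 7.51, 7.02 and 11.1 in TSA 1 to 4. The median rank of these peaks was the 83rd to 84th percentile in Vehicle 1 to 3, the 68.4th in Vehicle 4, and between the 78.7th and 88.6th in TSA. At gene ends, regions of 2000 bp or more in all 8 libraries (1169 regions) had medians of 7.15 to 14.6, and narrow regions found in 1 to 7 libraries (16126 regions) had medians of 4.46 to 5.52. Vehicle 4 was lowest in all 3 classes of region. Over the 8253 regions the order of fold enrichment was shared between libraries only in part, with Spearman coefficients of 0.49 (Vehicle 4 with TSA 3) to 0.64 (Vehicle 2 with Vehicle 3), where all libraries share the input.

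**Figure D2:**
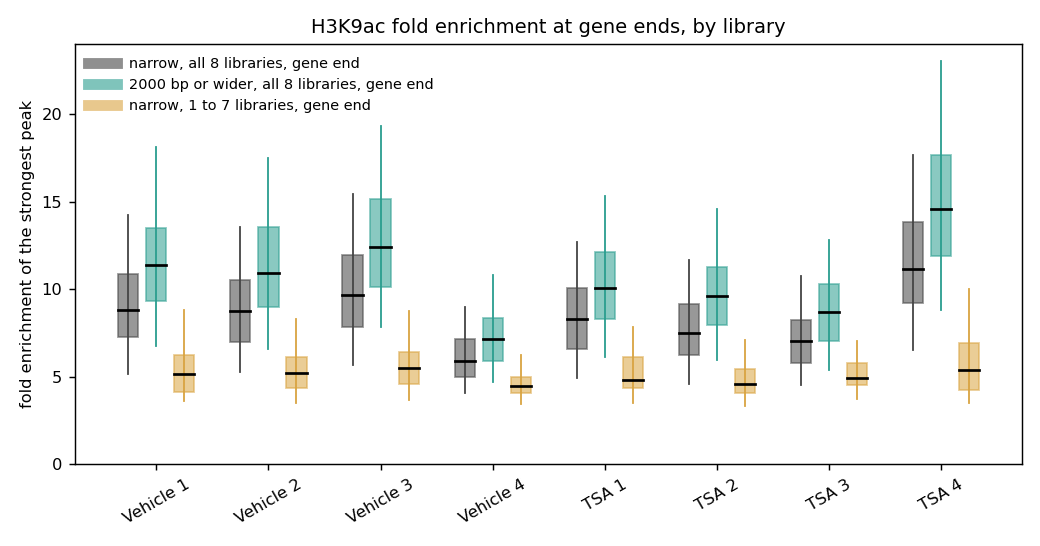
Fold enrichment of the strongest H3K9ac peak of each region by library, for 3 classes of gene-end region; boxes span the quartiles, black bars are medians and lines run from the 5th to the 95th percentile of regions. Narrow regions with a peak in all libraries (grey) lie between the wide ones (green) and those found in fewer libraries (yellow) in all 8 libraries. The rule and the use of the strongest peak favour this order.

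The highest ranks, averaged over the 8 lists, were at an actin gene, a pair of histone genes and 2 transcription factor genes. The region at Actb, which encodes cytoplasmic beta-actin (chr5:142906206-142908058), had fold enrichments of 22.8, 29.3, 21.1 and 13.3 in Vehicle 1 to 4 and 18.4, 13.4, 14.9 and 29.2 in TSA 1 to 4. That at the paired histone genes H2bc23 and H2ac23 (chr13:21808979-21810274) had 29.5, 26.3, 22.1 and 13.3 in Vehicle and 20.5, 13.4, 12.4 and 25.3 in TSA. Reads of near-identical histone genes may be split between copies. Zfp143, which encodes a zinc finger activator of transcription (chr7:110060391-110061463), and Klf7, which encodes a KLF-family transcription factor (chr1:64121788-64122810), completed the first 4, at mean percentiles of 99.7 each. In all 4 regions the Vehicle and TSA values overlapped.

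At the other end lay regions that just reached the peak limit in some libraries. Parm1 had the lowest mean percentile, 20.6, with fold enrichments of 3.83, 4.82, 4.08 and 4.08 in Vehicle 1 to 4 and 3.93, 4.59, 4.08 and 3.58 in TSA 1 to 4 (chr5:91517615-91518488). Smarca5, which encodes the ISWI remodelling ATPase SNF2H, followed at 25.8. Chrna3, for a nicotinic acetylcholine receptor subunit, had 27.0 and Soat1, for a cholesterol-esterifying enzyme, 28.6.

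The promoters were CpG-rich, as a group close to those of wide regions and apart from those with no region. The promoter stretch runs from 250 bases before to 50 after the start. In 6076 genes with a narrow region in all libraries at the start, the median GC content was 62.0% and the median CpG ratio (observed over expected from base content) was 0.812. In 82.8% of them the ratio was over 0.6, and in 163 genes (2.68%) it was under 0.3. At 784 starts with a wide region the median ratio was 0.777, at 3290 with a narrow region in fewer libraries 0.628, and at 5588 with no region 0.168, where 4.78% were over 0.6. Over all 15752 promoters the median ratio was 0.586 and 48.9% were over 0.6.

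Motif content followed the same division, with some motifs more common at narrow regions in all libraries than in any other class. The ETS motif CCGGAAG was in 22.1% of their promoters, against 15.9% at wide regions, 9.18% at regions in fewer libraries, 2.33% without a region and 12.05% of all promoters. YY1's motif AAGATGGC was in 5.69%, against 3.28% of all, the NRF1 motif in 2.93% against 1.42%, and the cyclic AMP response element TGACGTCA in 3.80% against 2.38%. At wide regions these motifs were in 4.59%, 1.66% and 3.06% of promoters. GC boxes stood in 69.7% of promoters, against 46.7% of all and 10.5% without a region. Wide regions (66.5%) and regions in fewer libraries (61.2%) came near that share. TATAAA was in 5.91%, against 6.25% at wide regions, 8.21% at regions in fewer libraries, 13.7% of all and 26.3% without a region. The CCAAT box (40.2% against 39.4%) and the E-box CAGCTG (13.5% against 14.9%) were near their share of all promoters. A match of letters is a description and not a bound site.

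Genes of general cell machinery had these regions most often. The share with a narrow region in all libraries at the start was 82.6% for mitochondrial ribosomal proteins (57 of 69 genes with a known strand), 82.6% for RNA polymerases, general factors and Mediator (71 of 86), 81.7% for the respiratory chain and ATP synthase (67 of 82), 80.6% for splicing (54 of 67), 79.7% for cytosolic ribosomal proteins (51 of 64) and 78.6% for the proteasome (33 of 42). For vesicle transport it was 77.6% (114 of 147), for the RNA exosome and RNA decay 77.4% (24 of 31) and for transfer RNA synthetases 18 of 24 genes had one. Lower shares were found for DNA replication (27 of 39), DNA repair (36 of 53), cilium and centrosome (52 of 80), C2H2 zinc finger genes (217 of 389) and mitosis (17 of 33).

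Genes of cortical identity mostly had another kind of region. Of 19 cortical neuron identity genes, 13 had a region of 2000 bp or more in all libraries and 2 a narrow one, at Tle4 and Rorb. For progenitor transcription factors and markers it was 8 wide and 5 narrow of 19. None of 19 ganglionic eminence genes had a narrow region in all libraries, while 8 had a wide one and 9 a narrow one in fewer libraries. The list of histone deacetylases and acetyltransferases had 13 narrow and 3 wide of 25, and BAF subunits 16 narrow and 6 wide of 24. Of 940 olfactory receptor genes, which are silent in cortex, 937 had no region at the start. Trnp1, the nuclear protein gene named in the study's title, had no region of any class within 1 kb of the outermost start of its RefSeq gene, while its start in the promoter table lies farther inside the gene, where regions found in fewer libraries lay.

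**Figure D3:**
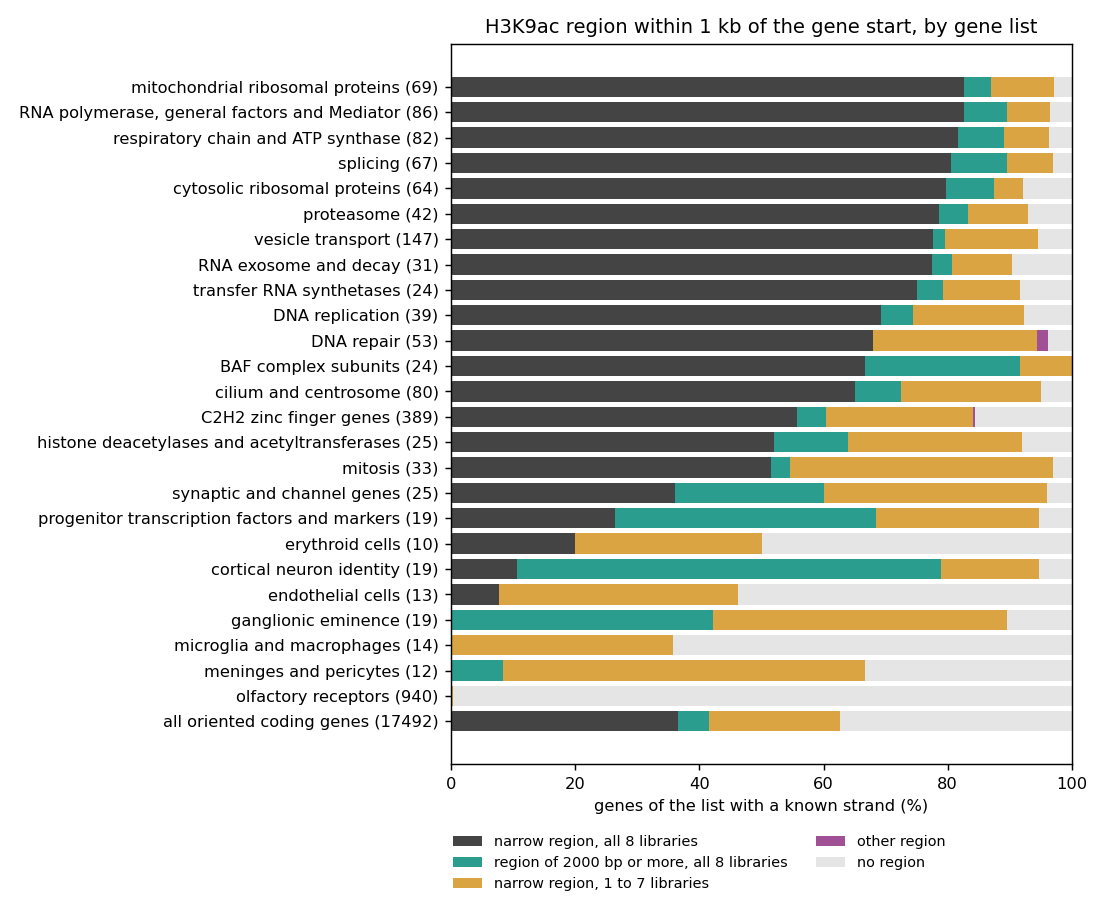
Share of each gene list (%, genes with a known strand, their number in brackets) by the kind of H3K9ac region within 1 kb of the start. Narrow regions in all libraries (dark) take 82.6% of the mitochondrial ribosomal protein genes and 0 of the ganglionic eminence genes, whose bars hold wide regions (green) and regions in fewer libraries (yellow).

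The lists also differed within the set. Averaged over the 8 lists of peaks, the strongest region of a cytosolic ribosomal protein gene stood at a median percentile of 90.8 and that of a splicing gene at 89.1, against 82.2 for all 6390 genes. The 5 progenitor genes were lowest at 67.2, while mitosis genes stood at 74.97 and synaptic and channel genes at 74.8. The ETS motif was in 43.8% of the 32 proteasome promoters and 41.7% of 12 histone deacetylase and acetyltransferase promoters. DNA replication had it in 40.7% of 27 promoters and cytosolic ribosomal protein genes in 38.8% of 49. Over the set it was in 22.1%, and in 13.3% of 15 BAF subunit promoters. Of 5 progenitor and 7 synaptic and channel promoters, 0 had it.

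RNA was not used by the rule, so the change between Vehicle and TSA could be tested gene by gene. The members and the gene lists were chosen with earlier results of these data known, so counts by list are a description. Of 6390 genes with a narrow region at the start, 6088 passed the filter on low counts (96.4% of those linked to a count), and 985 rose and 1378 fell in TSA (edgeR quasi-likelihood test, adjusted p under 0.05 over all 15000 tested genes). That is 38.8% called, against a background of 33% of all tested genes, with 16.2% risen against 15.4% and 22.6% fallen against 17.6%. Among all 13291 tested coding genes 35.4% were called, with 16.8% risen and 18.6% fallen. Against coding genes the share risen in the set was therefore no higher. The Vehicle and TSA libraries did not overlap in 38.5% of these genes, against 32.3% of all tested. Large changes were fewer: 35 rose and 56 fell by over 1 on the log2 scale, 1.49% against 2.98% of all tested genes. The median log2 fold change was −0.03, against −0.01 for all tested genes. Without the mitochondria-rich RNA libraries of Vehicle 1 and 4 the counts were 910 and 1341, and with sequencing lane as a term they were 999 and 1316.

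Wide regions went the other way in their counts. Of 837 tested genes with a wide region at the start 260 rose and 130 fell (46.6% called), and of 2651 with a narrow region in fewer libraries 400 rose and 381 fell (29.5% called). The difference between classes was not tested.

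In the lists of ribosomal, respiratory chain and proteasome genes most members fell, where 17.6% of all tested genes fell. Of 51 tested cytosolic ribosomal protein genes with a narrow region at the start, 34 fell and 0 rose, with a median log2 fold change of −0.64. Of 56 mitochondrial ribosomal protein genes 40 fell and 0 rose (median −0.49), of 67 respiratory chain and ATP synthase genes 53 fell and 0 rose (median −0.60), and of 33 proteasome genes 22 fell and 1 rose (median −0.40). The other members did not pass. Without Vehicle 1 and 4 of RNA the falls numbered 27, 36, 40 and 23.

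Rpl34, a protein of the large ribosomal subunit, had 195, 125, 142 and 204 CPM in the Vehicle libraries and 47.7, 49.1, 46.1 and 43.2 CPM in those given TSA, in the order of their numbers here and below. Every TSA library was below every Vehicle library, with a log2 fold change of −1.84 ± 0.14 (SE here and below, edgeR adjusted p = 3.05e-06). Processed pseudogenes copy many ribosomal protein genes, so their counts are uncertain. Ndufv2, a subunit of respiratory complex I, had 140, 121, 133 and 175 CPM in Vehicle and 71.2, 70.5, 74.8 and 81.0 CPM in TSA, a change of −0.93 ± 0.11 (adjusted p = 6.11e-05). Psma2, an alpha subunit of the 20S proteasome, had 136, 140, 133 and 152 CPM in Vehicle and 82.0, 83.4, 85.0 and 79.5 CPM in TSA, a change of −0.77 ± 0.08 (adjusted p = 3.23e-05). In both genes the groups were apart. Mrpl50, of the large mitochondrial ribosomal subunit, averaged 97.8 ± 17.1 CPM in Vehicle libraries and 53.0 ± 3.40 CPM in TSA (SD, n = 4), a change of −0.88 (edgeR adjusted p = 9.82e-05). Lars2, the mitochondrial leucyl-tRNA synthetase, had 789 ± 99.4 and 336 ± 77.7 CPM (SD, n = 4), a change of −1.23 (edgeR adjusted p = 7.33e-05). It is from another list, the transfer RNA synthetases, where 5 of 18 tested genes fell and 0 rose (median −0.03). In the RNA alternatives that list had 3 to 7 falls and 0 to 3 rises.

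Genes that copy and read DNA also had more falls than rises. In the whole set 22.6% fell and 16.2% rose, and of all tested genes 17.6% and 15.4%. Of 27 DNA replication genes 12 fell and 0 rose, and of 17 mitosis genes 7 fell and 1 rose. Without Vehicle 2 the rises in these lists numbered 4 and 3, and those of the proteasome list 4. Prim1, the catalytic primase subunit, had 70.6, 72.7, 68.7 and 89.8 CPM in Vehicle and 38.7, 39.5, 37.9 and 43.6 CPM in TSA, groups that were apart, with a change of −0.92 ± 0.10 (edgeR adjusted p = 4.20e-05). Mad2l1, of the spindle checkpoint, fell with a change of −1.04 (adjusted p = 1.63e-05) and Cdk1, the mitotic kinase, with −0.71 (adjusted p = 9.85e-05). Among polymerase, general factor and Mediator genes 27 fell and 8 rose of 71, and among splicing genes 20 fell and 7 rose of 54. The falls in the polymerase list numbered 16 without TSA 1 or TSA 2 and 17 without Vehicle 4, and the rises in the splicing list 3 without TSA 1, TSA 2, TSA 4 or Vehicle 4 and 4 without TSA 3. Gtf2h5, a TFIIH subunit, fell by 0.81, Med21, of Mediator, by 0.96, and Lsm3, of the U6 particle, by 0.93 on the log2 scale (adjusted p = 5.55e-05, 0.00012 and 3.94e-05). Other lists did not lean this way. DNA repair genes gave 3 rises and 1 fall of 36. Vesicle transport gave 19 rises and 23 falls of 112 (9 to 32 and 16 to 32 in the RNA alternatives). Cilium and centrosome genes gave 9 rises and 13 falls of 52.

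The lists of BAF subunit, RNA decay and C2H2 zinc finger genes were called at about the 38.8% of the whole set. Over all tested genes 15.4% rose and 17.6% fell. Of 16 BAF subunit genes 5 rose and 1 fell (median 0.14), with Arid1a at 341, 352, 302 and 266 CPM in Vehicle and 517, 493, 487 and 537 CPM in TSA. All TSA values were above all Vehicle values, and the change was 0.69 ± 0.10 (edgeR adjusted p = 0.000229). Smarca4, the ATPase BRG1, rose by 0.59 (adjusted p = 0.00324) and Actl6a, an actin-related subunit, fell, at −0.48 (adjusted p = 0.00124). Crebbp, the acetyltransferase CBP, rose by 0.63 (adjusted p = 0.000149) and Kat8, which acetylates histone H4, fell, at −0.40 (adjusted p = 0.0032). Of 23 RNA exosome and decay genes 6 rose, with Upf1 of nonsense-mediated decay at 0.53 (adjusted p = 0.000974), and 3 fell (1 without TSA 2, TSA 3 or Vehicle 3). C2H2 zinc finger genes gave 27 rises and 54 falls of 211, where rises numbered 18 without TSA 1.

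Of the neuronal lists, cortical identity had 2 narrow regions among 19 genes, and synaptic and channel genes 9 among 25, near the 36.5% of all genes. Tle4, a Groucho-family corepressor, had 114, 115, 118 and 103 CPM in Vehicle and 156, 161, 144 and 155 CPM in TSA, groups that were apart, and rose by 0.45 ± 0.08 (edgeR adjusted p = 0.000858). Rorb, a nuclear receptor of layer IV, rose by 0.74 (adjusted p = 0.0018). Of 9 synaptic and channel genes 5 rose (3 without TSA 1, without TSA 4, or without Vehicle 1 and 4 together) and 1 fell, with Cacna1e, a calcium channel subunit, at 0.69 (adjusted p = 8.04e-05) and Gria4, an AMPA receptor subunit, at −0.83 (adjusted p = 8.17e-05). In the progenitor list 1 of 5 passed, Slc1a3, a glial glutamate transporter, at 0.24 (adjusted p = 0.0434). That call was lost without any 1 of TSA 1, 2 or 3 or Vehicle 1 or 3 (adjusted p = 0.0812 to 0.138), and with lane as a term (0.0873) or no filter (0.107). Sox2 did not pass (−0.40, adjusted p = 0.066), but passed without TSA 4 (−0.49, adjusted p = 0.0462) or Vehicle 1 (−0.50, adjusted p = 0.0214), with no filter (−0.39, adjusted p = 0.00218) and without Vehicle 1 and 4 together (−0.65, adjusted p = 0.0040).

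**Figure D4:**
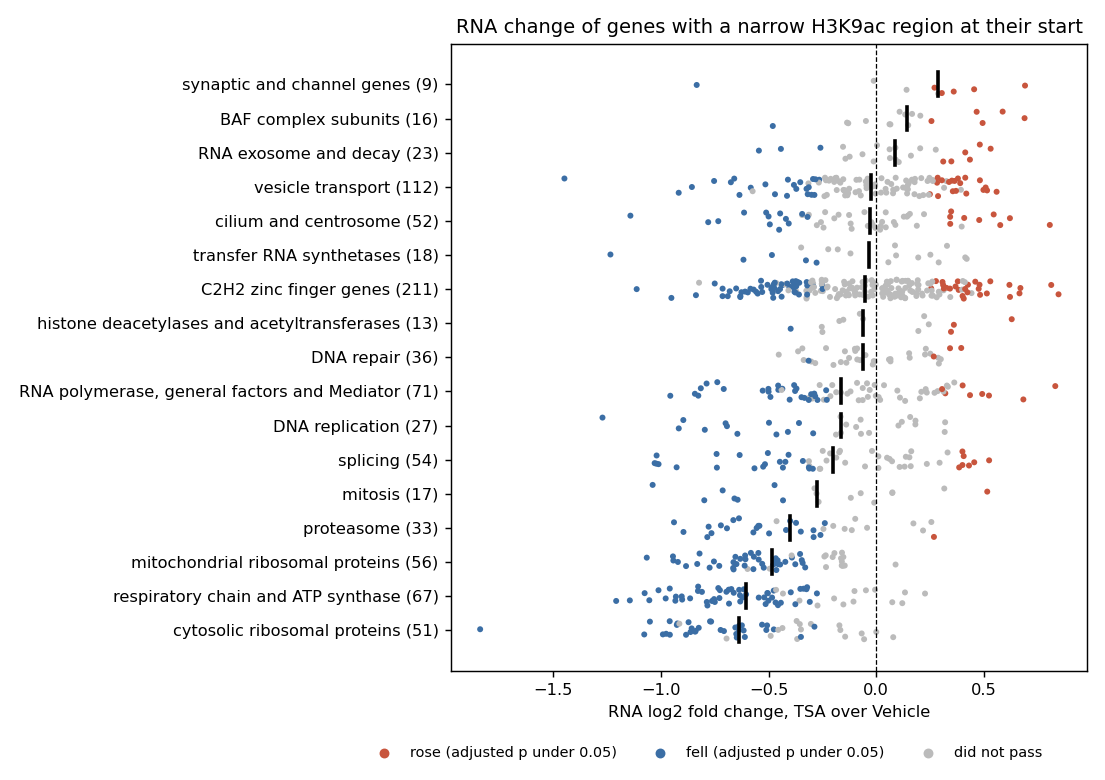
RNA log2 fold change (TSA over Vehicle) of each tested gene with a narrow region in all libraries at its start, by gene list, with the number of genes in brackets; black bars are medians. The 4 lists at the bottom have medians of −0.64 to −0.40, and BAF subunits and synaptic genes have medians of 0.14 and 0.29.

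Beside Rpl34, the largest called falls by the naming rule were in genes of varied function. Wls, which carries Wnt ligands to the cell surface, had 92.8, 116, 105 and 115 CPM in Vehicle and 22.6, 20.1, 23.9 and 11.9 CPM in TSA, a change of −2.46 ± 0.17 (edgeR adjusted p = 1.49e-06). Its narrow region (chr3:159839397-159841359) covers the start. Slc18a2, the vesicular monoamine transporter, averaged 64.8 ± 15.0 CPM in Vehicle libraries and 19.9 ± 8.45 CPM in TSA (SD, n = 4), a change of −1.66 (edgeR adjusted p = 0.000949). Pou3f4, a POU-domain transcription factor on the X chromosome, fell by 1.39 (adjusted p = 5.55e-05), and Sec61g, of the protein channel of the endoplasmic reticulum, by 1.45 (adjusted p = 0.000182) on the log2 scale. In each of these genes the TSA libraries lay below all Vehicle libraries, as the naming rule required.

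Among rises, Pde1b, a calmodulin-dependent phosphodiesterase, went from 49.4, 43.5, 46.6 and 40.5 CPM in Vehicle to 167, 144, 142 and 155 CPM in TSA (log2 fold change 1.75 ± 0.09, edgeR adjusted p = 4.73e-08). Sorl1, a sorting receptor of the endosome, went from 79.5, 84.4, 67.4 and 63.4 CPM to 226, 217, 189 and 200 CPM (1.49 ± 0.11, adjusted p = 8.8e-07). Heg1, a transmembrane protein of endothelial junctions, rose by 1.69 (adjusted p = 1.22e-07). Rlbp1, a retinaldehyde-binding protein, rose by 2.89 ± 0.12, from 11.4 ± 1.37 to 85.1 ± 10.3 CPM (adjusted p = 7.83e-09), and its region (chr7:79391579-79392810) also lies at the start of Fanci. Hmga1b had 1, 0, 8 and 4 counts in Vehicle 1 to 4 and 44, 52, 103 and 76 in TSA 1 to 4 (log2 fold change 4.33 ± 0.52, adjusted p = 7.07e-05). It is a near-identical copy of Hmga1, so its counts are uncertain.

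The span of the gene in the genome went with the direction of its change. Of 648 tested genes with a narrow region at the start and a span under 5 kb, 246 fell and 24 rose (median −0.27), and of 2052 spanning 5 to 20 kb 619 fell and 184 rose (median −0.12). From 20 to 100 kb, 461 fell and 513 rose of 2634 (median 0.03), and at 100 kb or more 52 fell and 264 rose of 754 (median 0.18). Leaving out the ribosomal, respiratory chain and proteasome lists, the shortest class had 184 falls and 24 rises of 563. Coding genes without such a region gave 89 falls and 29 rises of 455 in the shortest class and 63 and 271 of 911 in the longest. Rises in the shortest class numbered 13 without Vehicle 4 and 14 without TSA 4, and from 5 to 20 kb 112 without TSA 1, 114 without TSA 4 and 121 without Vehicle 4. From 20 to 100 kb the balance turned round, with 340 rises and 366 falls without TSA 1, 365 and 368 without TSA 2, and 352 and 396 without Vehicle 4. Without the mitochondria-rich Vehicle 1 and 4 together, the medians from the shortest to the longest class were −0.22, −0.11, −0.0048 and 0.10, the middle class had 447 rises and 500 falls, and the longest had 226 rises and 73 falls.

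**Figure D5:**
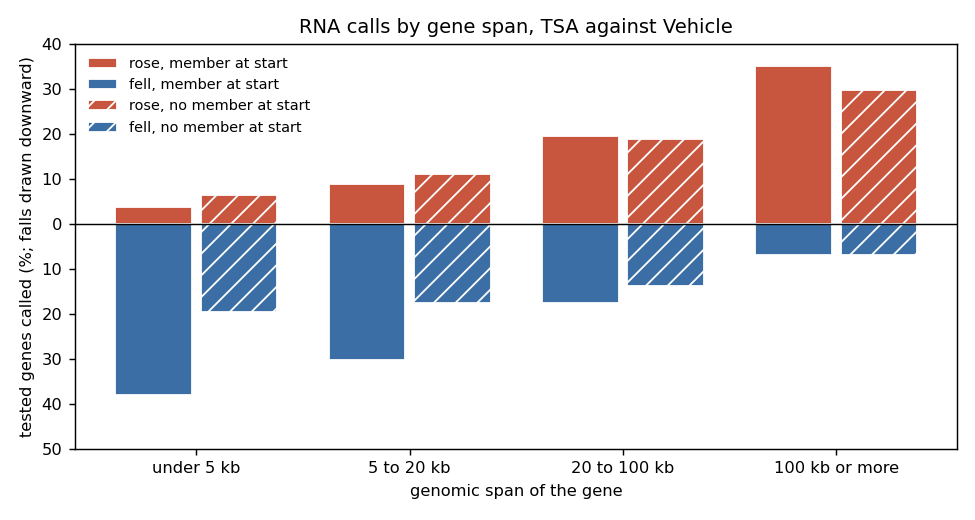
Share of tested genes (%) whose RNA rose (red, upward) or fell (blue, downward) in TSA by genomic span, for genes with a narrow region in all libraries at the start (plain) and coding genes without one (hatched). Falls go from 38.0% to 6.90% and rises from 3.70% to 35.01% across the plain bars.

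By promoter motif the shares of calls differed less than by span. The set as a whole had 22.6% fallen and 16.2% risen, and all tested genes 17.6% and 15.4%. Among genes with the ETS motif 369 fell and 146 rose of 1302 (28.3% and 11.2%), and with TATAAA 94 fell and 32 rose of 315 (29.8% and 10.2%). With a GC box 865 fell and 686 rose of 4088 (21.2% and 16.8%), near the shares of the set. With the YY1 motif 28.6% fell and 14.3% rose, and with the cyclic AMP response element 25.4% and 10.3%. The CCAAT box had 25.2% fallen and 14.2% risen, and the E-box 20.4% and 15.1%. With the NRF1 motif 40 fell and 24 rose of 174. The differences between motifs were not tested. CpG-poor starts did not stand out: at a CpG ratio under 0.3, 24 fell and 19 rose of 133.

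Shared starts gave pairs of genes whose RNA could be set side by side. A total of 910 regions lay within 1 kb of the starts of 2 genes on opposite strands, in 674 pairs, without always reaching the starts themselves. By the ends of the RefSeq genes, not the promoter table, the starts were apart in 433 of these, by a median of 98 bp (quartiles 45 and 217 bp). In 241 the spans overlapped, where unstranded reads cannot be told apart. Both genes were tested in 579 pairs. Both passed in 91, with 58 pairs fallen together, 8 risen together and 25 moving in opposite directions, and in 251 pairs only 1 gene passed. The sign was the same in 320 pairs (55.3%). Of 1241 tested genes in such pairs 345 fell (27.8%) and 121 rose (9.75%), with a median of −0.10. Of 4376 whose region lay near a single start 929 fell (21.2%) and 805 rose (18.4%), with a median of −0.0033. Over all tested genes 17.6% fell and 15.4% rose. The counts of pairs include those whose spans overlap, and the difference was not tested.

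Hdlbp and Septin2 show a pair that moved apart over the 63 bases printed above. Hdlbp, an RNA-binding protein of lipoprotein biology, had 175, 231, 193 and 149 CPM in Vehicle and 256, 249, 255 and 243 CPM in TSA (log2 fold change 0.42 ± 0.11, edgeR adjusted p = 0.0109). Septin2, a filament protein of the cell cortex, had 180, 192, 177 and 212 CPM in Vehicle and 137, 136, 139 and 128 CPM in TSA (−0.50 ± 0.09, adjusted p = 0.000591). In each gene the groups did not overlap. Their common region (chr1:93477635-93478851) was 1217 bp wide and ended inside Hdlbp, short of both starts. At Ndufa4 and Phf14 the first, a respiratory chain protein, fell, at −0.96 (adjusted p = 0.000508) while Phf14, with a PHD finger, was at 0.11 and did not pass (adjusted p = 0.381). Selenof, a selenoprotein, fell by 0.90 (adjusted p = 6.5e-05) and its neighbour Hs2st1, a heparan sulfate sulfotransferase, by 0.34, both on the log2 scale (adjusted p = 0.0148), a call lost without TSA 1, 2 or 4 (adjusted p = 0.0583, 0.054 and 0.0554).

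Regions at 3′ ends alone were rare, and their median width was 1094 bp. Of the 82, 6 lay within 1 kb of another listed start of the same gene, 9 near a start of another gene (3 of them noncoding only) and 67 near no start in the table, which is not complete. The strongest were at H2bc6, a histone gene (mean percentile 99.3, at an alternative start of its own), Tex2 (99.1, beside the start of a noncoding RNA gene) and Tmem44 (97.7). Of the 195 genes reached only at the 3′ end, 127 shared the region with the start of a neighbour and 51 had no start beside them.

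The RNA of these 195 genes gave more rises than falls. At their own start 97 of the genes had a narrow region in fewer libraries, 44 a wide region and 54 no region. Of the 132 that were tested 26 rose (19.7%, against 15.4% of all tested) and 9 fell (6.82%, against 17.6%). In all 26.5% were called, against 33% of all tested, with a median of 0.13. Without TSA 4 the rises numbered 17. Tbr1, a transcription factor of deep-layer neurons with a narrow region at its own 3′ end (chr2:61812135-61813676), had 249, 296, 264 and 200 CPM in Vehicle and 453, 478, 461 and 488 CPM in TSA (log2 fold change 0.90 ± 0.11, edgeR adjusted p = 7.53e-05). Dlx1, an interneuron transcription factor with a narrow region at its 3′ end (chr2:71533866-71535808) and a wide one at its start, had 453, 424, 499 and 497 CPM in Vehicle and 170, 191, 249 and 227 CPM in TSA (−1.16 ± 0.12, adjusted p = 2.6e-05). An antisense gene, Dlx1as, overlaps that region, and reads of both cannot be told apart. The naming rule took only genes whose groups were apart. Aldoc, the brain aldolase, rose by 1.34 (adjusted p = 2.77e-06), and the region at its 3′ end lies at the start of Pigs.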

How the data were processed

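H3K9ac peaks were called by the authors for each library with MACS2 2.1.0.20140616 against 1 input at a q-value limit of 0.1, per the file headers, on mm10, per the submitters' processing notes. The deposited columns are the pileup signal, the fold enrichment (a ratio to local background) and the −log10 of p and q per peak. They describe peaks within a list and were not compared between groups by a test. For RNA, the authors deposited unnormalized read counts per gene. No aligner or counter is named in the sources used here, and per the labels' protocols the library kit was unstranded.

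Peaks were merged and assigned to gene ends here as described in the report, with 21900 RefSeq coding genes, of which 17492 had a strand. RNA was tested with edgeR 4.0.16 (filterByExpr, TMM, robust quasi-likelihood, TSA against Vehicle, no covariate) in R 4.3.3. Benjamini-Hochberg adjusted p-values under 0.05 over 15000 genes were called. CPM use TMM-scaled totals, and SE is the size of the log2 change over the square root of F. Scripts were tested on simulated data. DESeq2 1.42.0, limma 3.58.1 and changes of the region rule were alternatives. Transcript lengths were not used here, so the planned levels per kb are not given, and levels are not compared between genes.

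Named genes were the 4 regions of highest and of lowest mean percentile, the 3 highest at 3′ ends, those beside the width limit, the 6 largest called rises and falls at starts (3 each at 3′ ends only) with mean log2 CPM above 0 whose groups were apart, up to 3 genes per list by p, and the 4 divergent pairs with the highest lower level, without chromosome 18 for rises and falls. Not all are printed, and 1 region beside the width limit is not reported here. The members and all 25 gene lists were chosen with earlier results of these data known.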

Additional observations from a re-analysis of the deposited data

Results flagged for a closer look

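In groups of 4 libraries, 8 of 156 sets of values had 1 library far from the other 3 by Dixon's criterion, where chance gives about 7.8. Of the H3K9ac values, 3 concerned Vehicle 4: a median of 426 bp covered by peaks per region, 47.3% of its peaks inside the narrow gene-end regions, and a median percentile of 68.4. The RNA values were Heg1 in Vehicle 2 (48.5 CPM, the highest of the Vehicle libraries), Dleu7 in TSA 1 (4.73 CPM, the lowest of TSA), Mea1 in TSA 3 (44.0 CPM, the lowest of TSA), Psmd14 in Vehicle 4 (230.5 CPM, the highest of Vehicle) and Baz2b in TSA 1 (149.5 CPM, the lowest of TSA).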

How the results depend on the processing

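With 4 libraries a group, the peak list of each library sets which regions count as present in all: leaving out 1 H3K9ac library gave 8403 to 9702 regions (the highest without Vehicle 4). Changes of the rule gave 6767 regions (1500 bp), 9084 (3000 bp), 7734 (500 bp window), 8683 (2 kb window), 7962 (−log10 q of at least 2) and 8407 (100 bp overlap).

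Leaving out 1 RNA library gave 685 to 1209 rises and 1118 to 1478 falls at starts, 17 to 31 rises and 7 to 13 falls at 3′ ends only, and medians at starts of −0.04 to −0.02; over all tested genes, 1707 to 2702 rises and 2104 to 2891 falls. The median at starts was −0.0147 with RLE size factors. At 3′ ends only, a 2 kb window gave 33 rises and 15 falls, a 500 bp window 6 falls, and leaving out the mitochondria-rich Vehicle libraries 33 rises. The cause was not tested. Kdr, which did not pass (0.12), was −0.14 without the mitochondria-rich Vehicle libraries (an alternative chosen after seeing the data) and −0.0134 without TSA 3.

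Samples of the groups share a replicate number, and the deviations of same-numbered samples correlated at 0.097, 0.085, 0.070 and 0.111, so the numbers were not taken as pairs. With the replicate number as a block, 1107 genes rose and 1403 fell at starts, and 30 and 10 at 3′ ends only. The block ended the call of Slc1a3 (adjusted p = 0.0586) and made one of Sox2 (0.0162). Of 72 genes followed, 67 passed and 60 passed in all 15 RNA alternatives. The 7 others were Slc1a3 and Hs2st1 (values in the report), Marchf7 (lost without TSA 1, adjusted p = 0.0501), Dcst1 (without TSA 2, 0.0888), Ercc8 (no filter, 0.0535), and Atm and Dlg2 (without the mitochondria-rich Vehicle libraries, 0.102 and 0.0504).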
